A study of Mus musculus with 15 samples.

Results

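The 10 genes described here are heat shock chaperones and their partners: the cytosolic HSP70 genes Hspa1a, Hspa1b and Hspa8, the HSP90 gene Hsp90aa1, the partner genes Dnajb1, Hsph1 and Bag3, the mitochondrial chaperonin genes Hspd1 and Hspe1, and the small heat shock protein gene Hspb1. They were chosen by symbol, and all 10 were found among the 45232 gene IDs of the count table. Of the 10, 9 were among the 17834 genes with enough counts to be tested, and Hspb1 was not. RNA sequencing was carried out on CD45.2+ LSK cells, the lineage-negative c-Kit+ Sca-1+ cells of mouse marrow, among which the blood stem cells lie, in 15 libraries of 5 groups with 3 libraries each. Vehicle, AG221, Rux and combo libraries came from mice labelled C57BL/6 and engrafted with Idh2 R140Q Jak2 V617F bone marrow, in which the Mx1-Cre transgene, inducible in blood-forming and other cells, had switched on both alleles, so that all 4 of these groups carry both mutations. The recipients had been given a mixture with CD45.1 WT competitor cells and had developed a myeloproliferative neoplasm before treatment. Rux mice received the JAK1/2 inhibitor ruxolitinib at 60 mg/kg, AG221 mice received the mutant IDH2 inhibitor AG221 (enasidenib) at 40 mg/kg by the labels, and combo mice received both drugs, in each case 2 times a day by gavage for 21 to 28 days with the last dose about 1.5 hours before sacrifice. The fifth group is labelled wild type (WT), and the labels give neither a transplant nor a treatment for it. The ages of the mice are not in the labels. Neither the labels nor the methods say whether a library is 1 mouse or a pool. A figure legend of the paper gives n = 3 per group and speaks of the clustered samples as mice. The p-values measure the spread between these libraries, part of which may be technical.

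Heat shock chaperones bind unfolded or newly made proteins and release them in cycles driven by ATP. HSP70 proteins take up a client with the help of a J protein such as Dnajb1 and let it go when an exchange factor such as Hsph1 or Bag3 removes ADP, HSP90 acts later on kinases and receptors, and the Hspd1 and Hspe1 proteins form the folding chamber of the mitochondrial matrix. Under heat or other stress to proteins the transcription factor Hsf1 binds heat shock elements, repeats of the unit GAA and its inverse TTC, and strongly induces Hspa1a, Hspa1b, Dnajb1, Hsph1, Hspb1 and Bag3, whereas Hspa8 and the mitochondrial pair are also made steadily in unstressed cells. HSP90 is known to hold the JAK2 kinase in its active shape, and JAK2-mutant cells are known to be sensitive to HSP90 inhibitors.

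Total counts ran from 18836625 to 32174287 per library, with a median of 25545779. The 10 genes together took 0.196% to 0.492% of the counts of a library, lowest in combo B24 and highest in AG221 A8. All 12 markers of LSK and stem cells were detected in every library, with Kit at 740 to 1552 CPM (read counts scaled to library size) and Ly6a, which encodes Sca-1, at 13.1 to 166 CPM. AG221 A9 differed from the other AG221 libraries more than they did from each other, at 155 and 119 against 23.1 for the chi-square of the counts divided by its degrees of freedom, and Rux A16 likewise (110 and 89.2 against 13.7). Library names begin with A in the vehicle, AG221 and Rux groups and with B in the combo and WT groups, and what the letters mean is not stated, so that in a comparison across them the letter and the group cannot be told apart. The summed level of 24 immediate early genes, which cells switch on within minutes of a stimulus, was 925 to 1252 CPM in WT, 7713 to 16478 in vehicle, 4703 to 6308 in AG221, 4950 to 10221 in Rux and 868 to 1519 in combo libraries. Egr3 was at 3 counts or fewer in every WT library, and Egr3 and Ccn1 were so in every combo library. The 8 neutrophil markers summed to 2929 to 3291 CPM in WT, 6610 to 11212 in vehicle, 14758 to 17641 in AG221, 10749 to 17019 in Rux and 3570 to 6300 in combo libraries, with the defining marker Ly6g at 3 counts or fewer in every WT library. The 12 LSK and stem cell markers summed to 4469 to 4938 CPM in WT, 2528 to 3990 in vehicle, 2430 to 2665 in AG221, 3019 to 3558 in Rux and 3256 to 3977 in combo libraries. The 5 plasma cell markers were highest in WT, at 594 to 1274 CPM against 34.9 to 217 elsewhere, while the 6 mast cell and basophil markers were lowest in WT, at 75.2 to 152 CPM against 260 to 1005 elsewhere, and so were the 7 monocyte and dendritic cell markers, at 78.6 to 85.6 CPM against 230 to 1206. The 8 T and NK cell markers (161 to 226 CPM in WT, 366 to 763 elsewhere, with Gzma in vehicle and AG221 and Cd8a in combo at 3 counts or fewer in every library), the 6 megakaryocyte markers (249 to 338 and 352 to 935) and the 8 erythroid markers (67.8 to 103 and 137 to 1122) were also lowest in WT, and the 8 B lineage markers were highest there (68.9 to 98.5 and 29.2 to 59.1). The part of these genes in the chaperone results was not tested, and in such bulk samples fewer cells of a type and less RNA per cell cannot be told apart.

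Per kilobase of exon, the constitutive genes stood far above the inducible HSP70 genes. In WT libraries the level was 216 ± 36.7 CPM per kb (SD, n = 3) for Hspa8, 145 ± 17.8 for Hspd1, 125 ± 17.1 for Hsp90aa1, 52.5 ± 11.6 for Hspe1 and 47.0 ± 4.93 for Dnajb1. Hsph1 stood at 13.9 ± 2.62, Hspa1b at 8.31 ± 3.29, Bag3 at 5.84 ± 0.52, Hspa1a at 1.56 ± 0.46 and Hspb1 at 0.20 ± 0.16 CPM per kb. Of neighbours in this order, Hspe1 and Dnajb1, and Hspa1b and Bag3, differed by less than the larger of their SDs. With the median transcript length in place of the union of exons the order changed: Hspa8 stood at 1130 CPM per kb, Hsp90aa1 at 823, Hspd1 at 443, Hsph1 at 134, Hspe1 at 89.1 and Dnajb1 at 51.5 in WT, so that Hsp90aa1 passed Hspd1, and Hsph1 passed Hspe1 and Dnajb1. The genes also differ in how many of their 50-base windows occur in other genes. The share was 66.3% for Hspa1a and 62.3% for Hspa1b, and at most 0.412% for Dnajb1, Hsph1 and Bag3. It was 22.8% to 50.1% for the other members. Its part in the order was not tested.

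Hspa1a and Hspa1b, which encode the stress-inducible HSP70, were lowest where the IDH2 inhibitor had been given. The genes lie side by side on the minus strand of chromosome 17 (GRCm38), Hspa1a at chr17:34969190-34972156 and Hspa1b at chr17:34956436-34959238, each as a single exon. Their 250 bases before the start, from RefSeq (GRCm38.p6), differ at 3 positions and are 98.8% identical. The Hspa1a window, chr17:34972157-34972406 on the minus strand, is shown because the pair moved together in these libraries. Capitals mark a pair of adjoining heat shock units, GAANNTTC, at bases 104 to 97 before the start, in the same place as in Hspa1b.
Hspa1a upstream: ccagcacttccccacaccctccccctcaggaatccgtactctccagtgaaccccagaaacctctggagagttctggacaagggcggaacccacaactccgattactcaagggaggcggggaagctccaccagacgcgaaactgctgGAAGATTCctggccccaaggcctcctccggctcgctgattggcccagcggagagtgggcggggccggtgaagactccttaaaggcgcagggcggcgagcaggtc
A search on both strands for 2 units (GAANNTTC or TTCNNGAA) found a match in 12.8% of 32851 windows of 250 bases before annotated starts, and a search for 3 units (GAANNTTCNNGAA or TTCNNGAANNTTC, each of which holds 2 of the shorter matches) in 0.466%. The match in the HSP70 pair is thus of the common kind, and neither gene holds 3 units in this window.

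Hspa1a was at 4.28, 6.13 and 3.45 CPM in WT, at 8.46, 2.33 and 3.16 in vehicle, at 0.38, 1.13 and 0.11 in AG221, at 3.39, 0.68 and 1.23 in Rux and at 0, 0.035 and 0.093 in combo libraries. WT and vehicle libraries overlapped, every AG221 library lay below them, Rux lay between with overlap, and combo lay below all others. Groups without overlap were common among all genes, at 61.32% for AG221, 58.15% for Rux and 41.58% for combo against WT. Against vehicle the shares were 19.97% for AG221 and 34.7% for combo. The combo values are 0, 1 and 2 counts, 3 counts in all against 403 in WT and 378 in vehicle. The ratio of the summed levels was 0.00930 to WT, with a 95% counting interval of 0.00191 to 0.0274, and 0.00948 to vehicle (0.00195 to 0.0279), where the intervals cover counting error only. The fitted log2 fold change of combo was -6.60 ± 1.05 (SE) from WT, adjusted p = 0.00728 (edgeR quasi-likelihood test, Benjamini-Hochberg over all tested genes), and -6.60 ± 1.05 from vehicle, adjusted p = 0.00261, a size that depends on the prior count at so few counts. AG221 fell by 3.12 ± 0.78 from WT on the log2 scale, adjusted p = 0.00597. Against vehicle the AG221 difference was -3.13 ± 0.78 and did not pass, adjusted p = 0.0611, while without AG221 A9 it was -4.25 ± 0.89 and passed, adjusted p = 0.00436. No fit that left out another AG221 or vehicle library called it. Combo was also lower than Rux (-5.20 ± 1.07, adjusted p = 0.00628) and than AG221 (-3.47 ± 1.14, adjusted p = 0.0326). The call against AG221 was lost without AG221 A8, AG221 A9, combo B24 or combo B25 and with only those groups in the fit, and the call against WT without combo B25.

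Hspa1b was at 20.4, 33.6 and 15.9 CPM in WT, at 16.7, 1.47 and 7.74 in vehicle, at 0.47, 1.36 and 0 in AG221, at 6.12, 2.01 and 1.94 in Rux and at 0.26, 0.45 and 0.56 in combo libraries. The lowest WT library lay above all Rux, AG221 and combo libraries, and the vehicle libraries ran from just above the lowest WT library in A1 to below every Rux library in A3. As stated for Hspa1a, 58.15%, 61.32% and 41.58% of genes had no overlap with WT in Rux, AG221 and combo. Against WT Hspa1b fell by 5.29 ± 1.04 on the log2 scale in AG221 (adjusted p = 0.00164), by 2.80 ± 0.90 in Rux (adjusted p = 0.0313) and by 5.76 ± 1.07 in combo (adjusted p = 0.0154). The Rux call was lost without Rux A16, Rux A17, WT B28 or WT B30, and the combo call without combo B25. Vehicle stood at -1.43 ± 0.85 from WT, adjusted p = 0.20. Combo fell by 4.32 ± 1.03 from vehicle, adjusted p = 0.0146, and that call was lost without vehicle A1, combo B24 or combo B25. AG221 stood at -3.86 ± 0.99 from vehicle, adjusted p = 0.0626, and without AG221 A9 at -5.25 ± 1.19, adjusted p = 0.00688, which passed. Leaving out any other AG221 or vehicle library gave no call. Combo did not differ from AG221 beyond the spread (-0.46 ± 1.07, interval -2.85 to 1.92). Of the 50-base windows along these transcripts, 66.3% of those of Hspa1a and 62.3% of those of Hspa1b occur in other genes as well, mostly in each other, and 19% of the Hspa1a exon lies under the antisense gene Gm20481, so that the level of each gene of the pair is uncertain. With the pair summed, AG221, Rux and combo stayed below WT and combo below vehicle and Rux, and the difference of combo from AG221 did not pass.

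Hspa8, which encodes the constitutive HSP70 of the cytosol, moved the other way in AG221. It was at 884, 802 and 1107 CPM in WT, at 1551, 1075 and 1502 in vehicle, at 2461, 1211 and 1634 in AG221, at 973, 1350 and 865 in Rux and at 661, 725 and 795 in combo libraries. Every AG221 library lay above every WT library, and every combo library lay below all others. Of all genes, 61.32% had no overlap between AG221 and WT, and 34.7% had none between combo and vehicle. AG221 rose by 0.93 ± 0.25 over WT on the log2 scale, adjusted p = 0.00815. Combo fell by 0.92 ± 0.25 from vehicle, adjusted p = 0.0262, a call lost without vehicle A1, vehicle A4, combo B24 or combo B25, and by 1.28 ± 0.25 from AG221, adjusted p = 0.00355. Combo stood at -0.36 ± 0.24 from WT, with an interval of -0.90 to 0.19.

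Hsp90aa1, the stress-inducible of the cytosolic HSP90 genes, was the member with the smallest adjusted p between vehicle and WT. It was at 500, 422 and 556 CPM in WT, at 862, 646 and 1065 in vehicle, at 1432, 879 and 1102 in AG221, at 684, 960 and 735 in Rux and at 524, 695 and 634 in combo libraries. Groups that did not overlap WT were common, at 56.94% of genes in vehicle, 61.32% in AG221 and 58.15% in Rux. For Hsp90aa1, all libraries of the vehicle, AG221 and Rux groups lay above the highest WT library, and combo overlapped WT and vehicle. Its level was 1.74-fold that of WT in vehicle (log2 0.80 ± 0.22, adjusted p = 0.0162), 2.31-fold in AG221 (1.21 ± 0.22, adjusted p = 0.00104) and 1.61-fold in Rux (0.69 ± 0.22, adjusted p = 0.0297). In combo it was 1.25-fold WT (0.33 ± 0.22, interval -0.15 to 0.81), which did not pass. Combo fell by 0.88 ± 0.22 from AG221, adjusted p = 0.00915, and stood at -0.47 ± 0.22 from vehicle, adjusted p = 0.18. The vehicle call against WT was lost without vehicle A4 or WT B30. The Rux call was lost without Rux A16, WT B28 or WT B30 and with upper quartile scaling.

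Hspd1 and Hspe1 encode HSP60 and HSP10, the barrel and the lid of the mitochondrial chaperonin, and are transcribed away from each other from a shared region of chromosome 1. The genes lie at chr1:55077835-55088243 on the minus strand and chr1:55088132-55091307 on the plus strand, so that they overlap at their starts. Of the members with a RefSeq window, these were the only ones with 3 adjoining heat shock units. The 30 bases around them, chr1:55088053-55088082 in RefSeq's GRCm38.p6, lie within exons annotated to Hspd1 and before the start of Hspe1. They are shown on the strand of each gene, and the capitals mark the 18 bases that hold 2 overlapping matches of 3 units.
Hspd1 strand: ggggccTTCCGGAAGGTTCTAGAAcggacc
Hspe1 strand: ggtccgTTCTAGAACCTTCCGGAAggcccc
The Hsph1 window holds 1 match of 2 units and the Hspb1 window 2, while none was found in the windows of Bag3 and Dnajb1.

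Hspd1 was at 367, 345 and 435 CPM in WT, at 712, 443 and 860 in vehicle, at 1117, 722 and 848 in AG221, at 552, 999 and 595 in Rux and at 414, 562 and 506 in combo libraries. All vehicle, AG221 and Rux libraries lay above WT, and combo overlapped both WT and vehicle. As stated for Hsp90aa1, 56.94%, 61.32% and 58.15% of genes had no overlap with WT in vehicle, AG221 and Rux. Hspd1 rose by 0.81 ± 0.27 in vehicle (adjusted p = 0.0329), by 1.23 ± 0.27 in AG221 (adjusted p = 0.00291) and by 0.90 ± 0.27 in Rux (adjusted p = 0.0226) over WT on the log2 scale. The vehicle call was lost without vehicle A1, vehicle A4, WT B28 or WT B30, with upper quartile scaling and with at least 10 counts in every library. The Rux call was lost without Rux A16, WT B28 or WT B30. Combo stood at 0.37 ± 0.26 from WT (interval -0.22 to 0.96) and fell by 0.86 ± 0.27 from AG221, adjusted p = 0.0252, a call lost without AG221 A8, AG221 A10, combo B24 or combo B26.

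Hspe1 was at 65.4, 69.9 and 97.1 CPM in WT, at 129, 85.2 and 159 in vehicle, at 240, 164 and 212 in AG221, at 110, 177 and 116 in Rux and at 97.7, 131 and 97.04 in combo libraries. Every AG221 library of Hspe1 lay above all WT, vehicle and combo libraries, where 61.32%, 19.97% and 44.61% of genes had no overlap. Its level was 2.65-fold that of WT in AG221 (log2 1.41 ± 0.26, adjusted p = 0.00115) and 1.74-fold in Rux (0.80 ± 0.26, adjusted p = 0.0319). The Rux call was lost without Rux A16, WT B28 or WT B30 and with upper quartile scaling. The difference of vehicle from WT, 0.69 ± 0.26, missed the threshold with adjusted p = 0.0535. Combo fell by 0.92 ± 0.26 from AG221, adjusted p = 0.016, a call lost without AG221 A8, combo B24 or combo B26, and did not pass against WT (0.49 ± 0.26, interval -0.08 to 1.06). Of the 50-base windows along the transcript, 42.1% for Hspd1, 22.8% for Hspe1, 47.5% for Hsp90aa1 and 39.4% for Hspa8 occur in other genes as well, such as the pseudogene Hspd1-ps3. The counts came from STAR's quantMode after alignment with its default settings, and the gene counts of that mode take only reads placed uniquely.

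Dnajb1, the J protein that feeds clients to inducible HSP70, varied most in AG221 relative to its mean, with an SD of 85.4 CPM on a mean of 98.9, and by SD alone in vehicle (107 on 281). It was at 139, 144 and 169 CPM in WT, at 190.5, 400 and 253 in vehicle, at 43.8, 197 and 55.5 in AG221, at 252, 143 and 256 in Rux and at 142, 148 and 140.2 in combo libraries. WT and combo libraries stood close together, vehicle lay above both, and AG221 A8 and A10 lay below every other library while A9 did not. Of all genes, 56.94% had no overlap between vehicle and WT, and 34.7% had none between combo and vehicle. No comparison of Dnajb1 passed in the edgeR fit of all libraries, while DESeq2 and the fit without a filter called AG221 lower than vehicle, and fits of only the groups compared called it in vehicle against WT and combo against vehicle. The nearest was AG221 against vehicle, -1.51 ± 0.46 with adjusted p = 0.086, and vehicle against WT stood at 0.90 ± 0.45, adjusted p = 0.135.

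Bag3, which couples HSP70 to small heat shock proteins and to autophagy, was at 16.4, 13.9 and 14.6 CPM in WT, at 13.4, 20.2 and 22.1 in vehicle, at 6.84, 19.2 and 8.002 in AG221, at 22.7, 15.3 and 21.5 in Rux and at 15.2, 19.7 and 17.3 in combo libraries. As for Dnajb1, AG221 A8 and A10 were the lowest of all libraries and A9 lay within the vehicle range. Hsph1, an HSP110 exchange factor, was at 110, 79.1 and 114 CPM in WT, at 138, 106 and 212 in vehicle, at 67.8, 120 and 54.0 in AG221, at 154, 164 and 136 in Rux and at 73.7, 124 and 96.6 in combo libraries. A8 and A10 were again the lowest libraries. Bag3 and Hsph1 passed in no comparison in the edgeR fit of all libraries, while DESeq2 called Hsph1 in AG221 against vehicle and against Rux, and a fit of only the groups compared called it in Rux against WT. By edgeR, AG221 against vehicle was -0.92 ± 0.31 (adjusted p = 0.104) for Hsph1 and -0.71 ± 0.33 (adjusted p = 0.203) for Bag3.

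Hspb1, which encodes the small heat shock protein HSP25, was near absent. It had 6, 11 and 1 counts in WT, 1, 2 and 4 in vehicle, 0, 1 and 0 in AG221, 4, 0 and 5 in Rux and 0, 1 and 1 in combo libraries. The summed level was 0.21 CPM in WT with a 95% counting interval of 0.12 to 0.33, and the AG221 and combo sums were at or under the 3 counts taken as the floor. A further limit is that 50.1% of its 50-base windows occur in other genes.

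**Figure D1:**
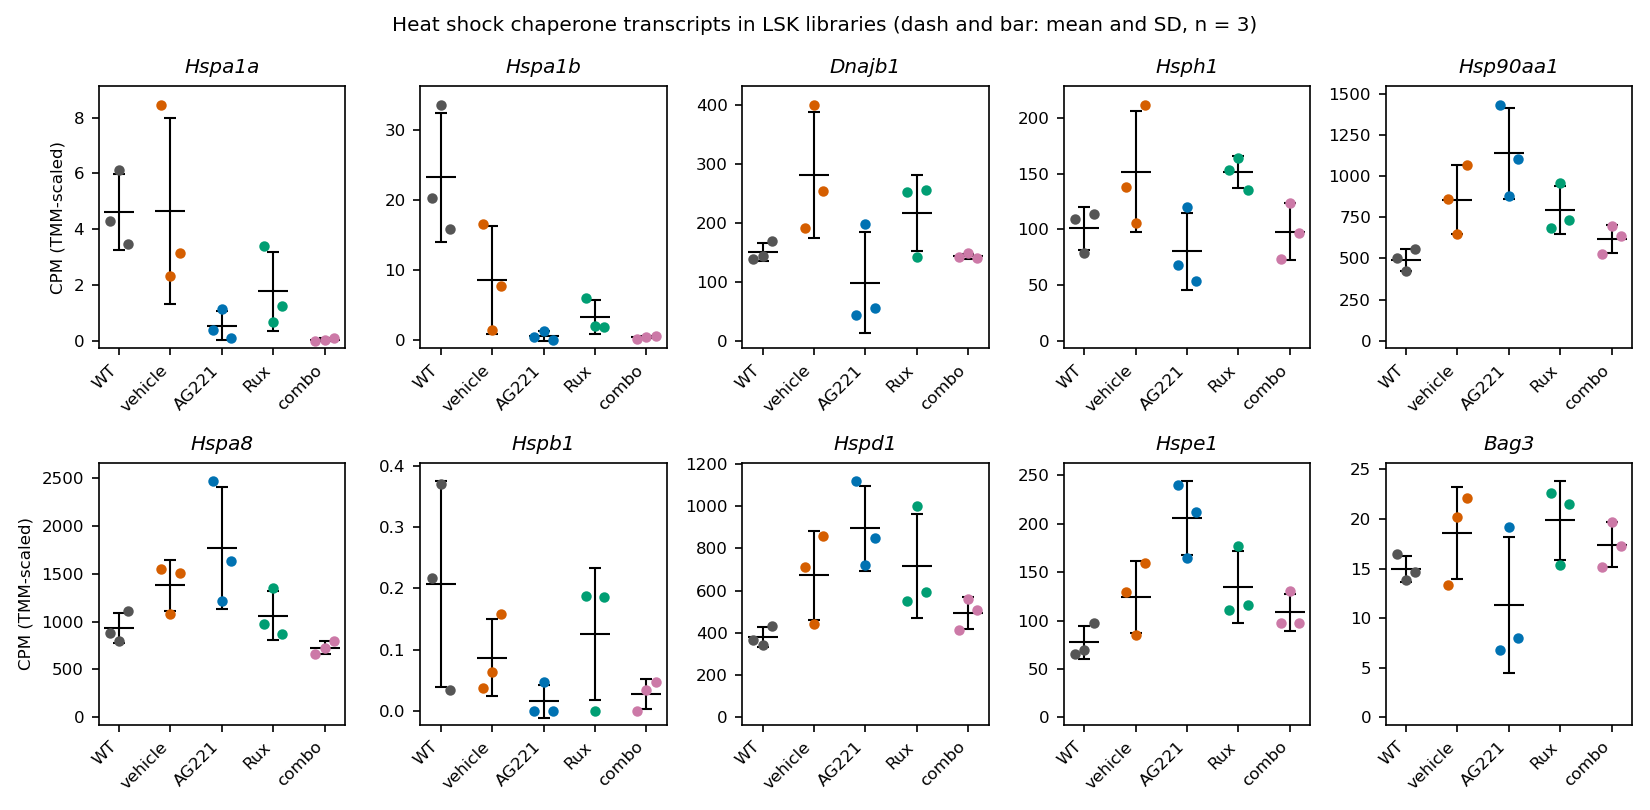
Levels of the 10 chaperone genes in CPM on a linear axis, one point per library, with dash and bar for the mean and SD of 3 libraries. Hspa1a and Hspa1b are near 0 in AG221 and combo, Hsp90aa1, Hspa8, Hspd1 and Hspe1 have their highest mean in AG221, and the AG221 points of Dnajb1, Hsph1 and Bag3 split into A9 and the other 2 libraries.

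Vehicle was compared with WT, groups that differ in the mutations, in the labelled transplant and treatment and in the library letter. The part of the disease alone was not tested. Of the 9 tested members 2 rose (Hsp90aa1 and Hspd1) and none fell, where 15.4% of all tested genes rose and 17.9% fell. DESeq2 called 3, adding Hspe1, where it called 33.3% of genes in either direction. The count was 0 without vehicle A4 or WT B30, 1 without vehicle A1 or WT B28, 3 without WT B31 and 4 without vehicle A3. The median log2 fold change of the 9 was 0.59, against -0.09 over all tested genes. The split of all calls depended on the scaling, with 2747 higher and 3190 lower by TMM, 1306 and 3586 by upper quartile scaling and 4138 and 2766 with GC content offsets. The adjusted p of Hspa1a was 0.996 (log2 0.01 ± 0.68, interval -1.51 to 1.53).

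Against WT, 4 of the 9 rose in AG221 (Hsp90aa1, Hspa8, Hspd1 and Hspe1), where 22.2% of all tested genes rose, and 2 fell (Hspa1a and Hspa1b), where 28.5% fell. In Rux 3 rose (Hsp90aa1, Hspd1 and Hspe1), where 16.1% of genes rose, and 1 fell (Hspa1b), where 16.2% fell. The Rux count was 0 without Rux A16, WT B28 or WT B30. In combo none rose, where 1.63% of tested genes rose, and 2 fell (Hspa1a and Hspa1b), where 1.61% fell. The combo count was 0 without combo B25. All these comparisons share the WT libraries, and the values of the members in each stand side by side in the plot of fold changes.

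Whether each drug changed the chaperones was asked by comparing treated with vehicle libraries, which these comparisons share. Combo and vehicle also differ in the library letter, so that the drugs and the letter cannot be told apart there. For Rux no member was called, where 0.0168% of tested genes were. None passed at an unadjusted p under 0.05 either, where 4.56% of genes did, and DESeq2 called 0. The intervals of Rux against vehicle were -0.59 to 0.37 for Hsp90aa1 and -0.50 to 0.68 for Hspd1. For AG221 the edgeR test also called 0 members, where 0.987% of genes were called in either direction, 5 members passed at an unadjusted p under 0.05 (Hspa1a, Hspa1b, Dnajb1, Hsph1 and Hspe1), where 25.2% of genes did, and DESeq2 called 4 (Hspa1b, Dnajb1, Hsph1 and Hspe1), where it called 20.4% of the genes to which it gave an adjusted p. In combo 3 members fell (Hspa1a, Hspa1b and Hspa8), where 4.21% of tested genes fell and 8.28% rose. That count was 1 without vehicle A1, combo B24 or combo B25.

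Between the treatments, combo was lower than AG221 in 5 members (Hspa1a, Hsp90aa1, Hspa8, Hspd1 and Hspe1), where 14.3% of tested genes were lower. The count was 2 without AG221 A8 or combo B24 and 3 without combo B26. Combo was lower than Rux in 1 member (Hspa1a), where 3.94% of tested genes were lower, and DESeq2, which called 16.2% of genes in either direction, added Hspa1b. The library letter also sets combo apart from AG221 and Rux, here and in the interaction, and cannot be told apart from the treatment. AG221 and Rux differed in 0 members by edgeR, where 3.43% of genes were called, while 8 passed at an unadjusted p under 0.05, where 25.5% of genes did, and DESeq2 called 2 (Hsph1 and Hspa8), where it called 19.5%. The interaction, which asks whether the combination differs from the sum of the log2 effects of the single drugs, was called by edgeR in 0 members, where 8.42% of genes were called. At an unadjusted p under 0.05, which 32% of genes passed, 4 members did, a share near that of all genes. They were Hsp90aa1 (-0.77 ± 0.30, adjusted p = 0.107), Hspa8 (-0.91 ± 0.35, adjusted p = 0.0962), Hspd1 (-0.95 ± 0.37, adjusted p = 0.105) and Hspe1 (-1.03 ± 0.36, adjusted p = 0.0777), and DESeq2 called Hspe1, where it called 24.4% of genes.

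These counts depended on the library AG221 A9. Its Dnajb1 level was 4.51 times that of A8 and 3.55 times that of A10, its Bag3 level 2.81 and 2.40 times, and its Hspa8 level 0.49 and 0.74 times. AG221 against vehicle called 0 members when any other AG221 or vehicle library was left out. Without A9 it called 6 of the 9 members, where 24.4% of all tested genes were then called against 0.987% with A9. Besides Hspa1a and Hspa1b, given above, Dnajb1 stood at -2.51 ± 0.32 (adjusted p = 0.000282), Bag3 at -1.33 ± 0.25 (adjusted p = 0.00254), Hsph1 at -1.33 ± 0.29 (adjusted p = 0.00573) and Hspe1 at 0.85 ± 0.27 (adjusted p = 0.0354). AG221 against WT called all 9 tested members without A9, where 56.4% of genes were called, with Dnajb1 at -1.59 ± 0.30, Bag3 at -0.998 ± 0.25 and Hsph1 at -0.72 ± 0.28. AG221 against Rux called 7 (25.1% of genes) and the interaction 6 (31.8% of genes). Without A9 the other comparisons moved as well, with 5 called in vehicle against WT (41.6% of genes), 4 in combo against vehicle (15.7%) and 2 in combo against Rux (15%). In that fit the interaction was positive for Dnajb1 (1.91 ± 0.39) and Bag3 (1.14 ± 0.33) and negative for Hsp90aa1, Hspa8, Hspd1 and Hspe1, and combo against AG221 called Dnajb1 and Bag3 as higher and no longer called Hspa1a. Nothing in the labels sets A9 apart.

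**Figure D2:**
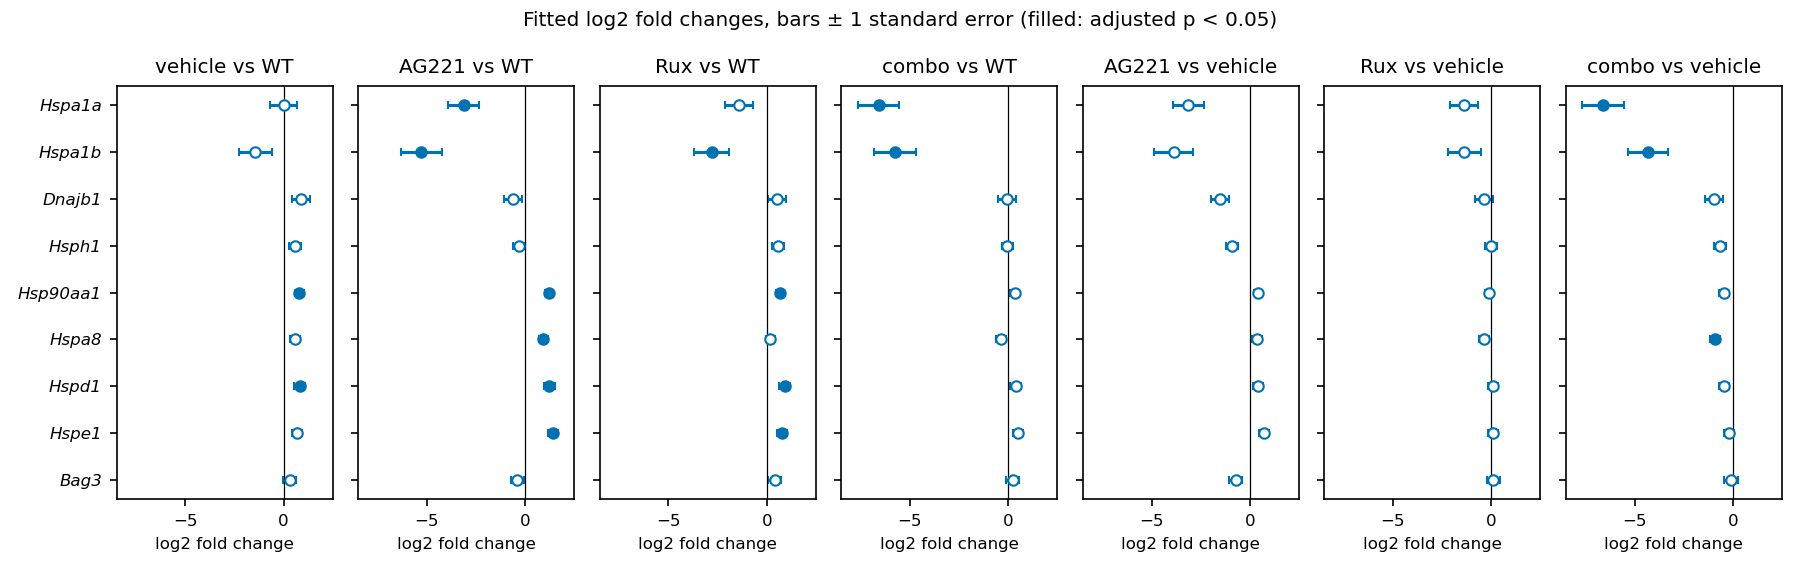
Fitted log2 fold change of the 9 tested members in 7 comparisons, with bars of 1 standard error and filled points for adjusted p under 0.05. Hspa1a and Hspa1b lie far to the left in both combo panels, and no point is filled in the AG221 and Rux comparisons with vehicle.

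Across the 15 libraries 8 of the 9 tested members fell into 3 sets that varied together, given here as a description over points that share groups and depth. Hsp90aa1, Hspa8, Hspd1 and Hspe1 had pairwise Pearson correlations of log2 CPM from 0.76 to 0.97, with Hsp90aa1 and Hspd1 the closest and Hspd1 and Hspe1 at 0.96. With each library centred on its group mean these pairs still stood at 0.79 to 0.95. Hspa1a and Hspa1b stood at 0.90 (0.90 within groups), and Dnajb1 and Bag3 also at 0.90 (0.91 within groups). Hsph1 was less closely tied to them, at 0.70 to Dnajb1 and 0.74 to Bag3, and within groups at 0.37 and 0.62, next to 0.59 to Hspa1b. Between the sets, Dnajb1 went against Hspa8 (-0.44, and -0.80 within groups), and Bag3 did so too (-0.61, and -0.70 within groups).

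The opposition of Dnajb1 to the HSP90 and chaperonin set was visible inside each of the groups whose names begin with A, and Hsph1 did not share it in vehicle and Rux. In vehicle, A3 had the highest Dnajb1 and the lowest Hspa8, Hsp90aa1, Hspd1 and Hspe1 of the 3 libraries, but also the lowest Hsph1 and only the second highest Bag3. In AG221, A9 had the highest Dnajb1, Bag3 and Hsph1 and the lowest Hspa8, Hsp90aa1, Hspd1 and Hspe1. In Rux, A16 was the reverse, with the lowest Dnajb1 and Bag3 and the highest Hspa8, Hsp90aa1, Hspd1 and Hspe1, and its Hsph1 was the highest of the group. The summed immediate early genes were highest in vehicle A3 and AG221 A9 within their groups and lowest in Rux A16, at 16478, 6308 and 4950 CPM. In WT and combo no library set Dnajb1 against all 4 of these genes. WT B31 had the highest Dnajb1 of its group and also the highest Hspa8, Hsp90aa1, Hspd1 and Hspe1, and combo B25 had the highest Dnajb1, Hsp90aa1, Hspd1 and Hspe1, while combo B26 had the lowest Dnajb1 and the highest Hspa8. WT and combo libraries held Dnajb1 between 139 and 169 CPM, with immediate early sums of at most 1519 CPM.

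**Figure D3:**
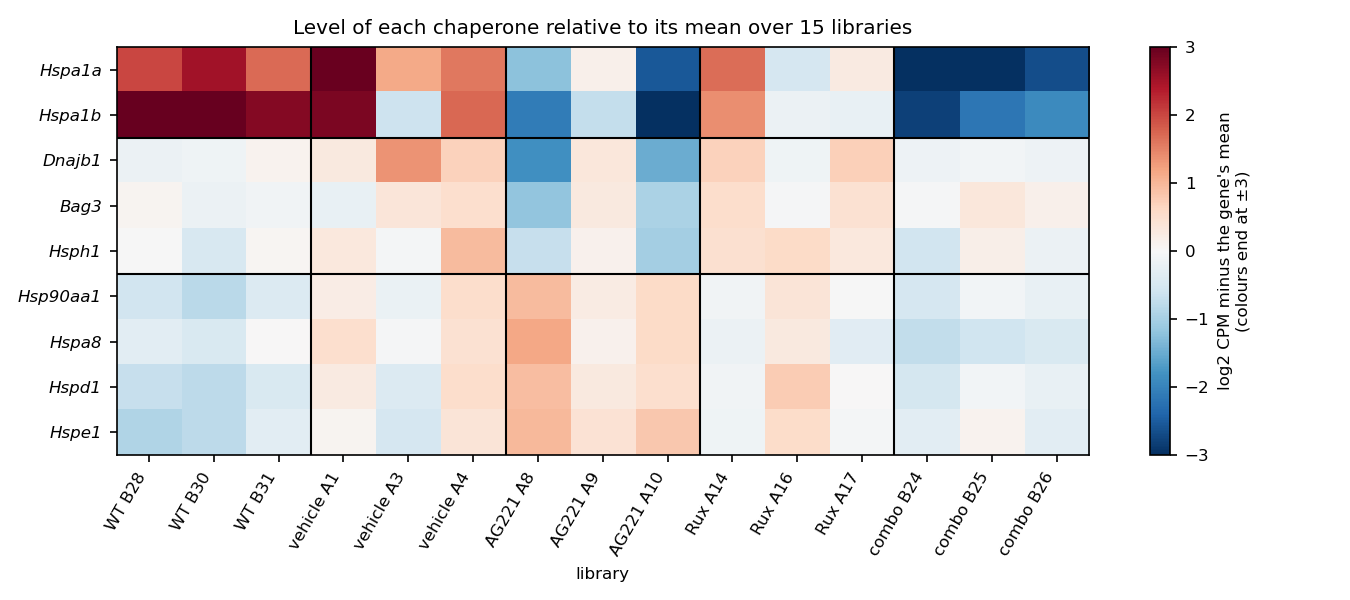
Log2 CPM of the 9 tested members less the mean of each gene over 15 libraries, with genes in rows by set and libraries in columns by group. The upper pair is high in WT and low in AG221 and combo, the middle set is low in AG221 A8 and A10, and the lower set is high in AG221 and mostly low in WT and combo.

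**Figure D4:**
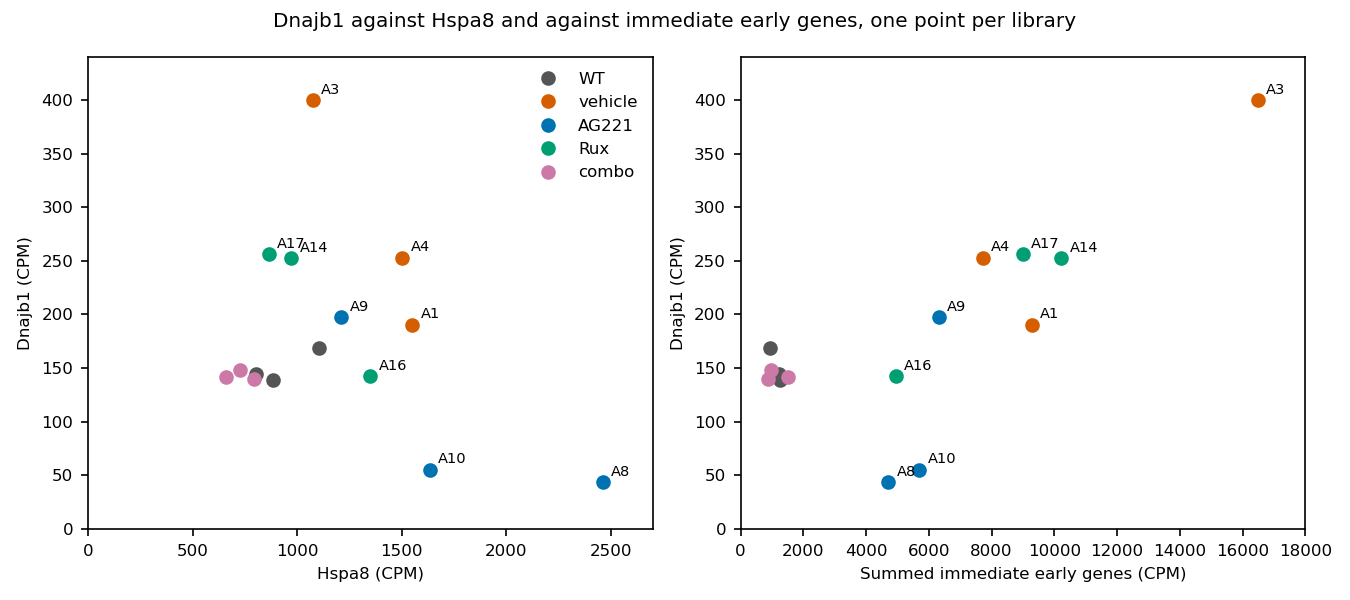
Dnajb1 in CPM against Hspa8 in CPM (left) and against the summed level of 24 immediate early genes in CPM (right), one point per library, with names for vehicle, AG221 and Rux. On the left AG221 A8 lies farthest to the right and lowest, and on the right vehicle A3 lies highest on both axes, while WT and combo sit together at immediate early sums of at most 1519 CPM.

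Among the AG221 libraries Hsf1, the main activator of the heat shock genes, was split as Dnajb1 and Bag3 were. It was at 97.8, 76.5 and 98.6 CPM in WT, at 73.9, 92.2 and 118 in vehicle, at 22.4, 93.6 and 27.6 in AG221, at 114, 55.7 and 108 in Rux and at 89.7, 94.93 and 94.96 in combo libraries. AG221 A8 and A10 had the lowest values of all libraries and A9 lay among the vehicle libraries. Many genes moved with A9: without it 24.4% of genes were called in AG221 against vehicle, and 0.987% with it. In Rux, Hsf1, Dnajb1 and Bag3 were all lowest in A16. In vehicle, Hsf1 was highest in A4, like Bag3, Hsph1, Hsp90aa1, Hspd1 and Hspe1, while Dnajb1 was highest in A3. Hsf1 was called in none of the comparisons with WT or vehicle, and its AG221 difference from vehicle was -0.99 ± 0.43, adjusted p = 0.179. Hsf2 fell in AG221 against WT by 0.85 ± 0.26 on the log2 scale (adjusted p = 0.0162) and in Rux by 0.75 ± 0.26 (adjusted p = 0.0414).

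Of the wider chaperone network, 9 lists with 94 genes outside the members were examined, 88 of which were tested. Against WT, 30 rose and 5 fell in vehicle, 37 rose and 19 fell in AG221, and 31 rose and 4 fell in Rux, next to the shares of all genes given above. These counts moved with single libraries and settings, from 35 in all in vehicle to 8 without WT B30, 16 without vehicle A1 or A4, 22 without WT B28, 19 with upper quartile scaling and 49 with GC content offsets, and from 35 in Rux to 13 without WT B30, 17 without Rux A16 and 20 without WT B28. In AG221 the 56 became 41 to 71 over left-out libraries, lowest without WT B30 and highest without A9. By edgeR combo differed from WT in 1 gene, Calr, which was higher, where 1.63% of all tested genes were higher and 1.61% lower. That 1 of 88 is near the share of all genes. The count was 0 by RLE scaling, with 10 counts in every library and without combo B25 or any 1 WT library. It was 4 with GC content offsets, 5 without a filter beyond 1 count, 6 with only the groups compared and 9 by DESeq2. Against vehicle 5 were higher and 7 lower in combo, where 8.28% of all tested genes were higher and 4.21% lower. The 12 became 5 without combo B24 or B25 and 6 without vehicle A1. The median log2 fold change of the 88 was 0.41 in vehicle, 0.24 in AG221, 0.44 in Rux and 0.28 in combo against WT.

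Of 14 genes of TRiC and prefoldin, the chaperonin of the cytosol and its feeder, 8 rose in vehicle and 13 in AG221 against WT by edgeR. In Rux 10 rose and in combo 0, and none fell in any of these. Of all tested genes 15.4% rose in vehicle, 22.2% in AG221, 16.1% in Rux and 1.63% in combo. At the last share, 0 of 14 genes in combo says little. Pfdn6 rose by 1.22 ± 0.18, Pfdn4 by 1.23 ± 0.19 and Pfdn2 by 0.86 ± 0.14 in AG221 on the log2 scale (adjusted p = 0.000364, 0.000397 and 0.000628). Of the 10 mitochondrial chaperones and proteases, 4 rose in vehicle, 4 rose and 1 fell in AG221, and 3 rose in Rux. Among them Grpel1, the exchange factor of mitochondrial HSP70, stood at 0.84 ± 0.17, 1.31 ± 0.17 and 0.89 ± 0.17 in the same order.

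The HSP90 list, with Hsp90ab1 and the co-chaperones, had 5 of 13 genes higher in vehicle and 6 higher in Rux. In AG221 6 were higher and 2 lower. Of all tested genes 15.4% were higher in vehicle, 22.2% in AG221 and 16.1% in Rux. The shares that were lower were 17.9%, 28.5% and 16.2%. Ahsa1, which speeds the HSP90 ATPase, rose by 0.60 ± 0.18, 0.94 ± 0.18 and 0.70 ± 0.18 in that order. The constitutive gene Hsp90ab1 was higher in AG221 (0.90 ± 0.17, adjusted p = 0.00143) and Rux (0.50 ± 0.17, adjusted p = 0.0398), and stood at 0.46 ± 0.17 with adjusted p = 0.0533 in vehicle. Of 16 chaperones of the endoplasmic reticulum, a list mostly tied to the unfolded protein response, 10 rose and 1 fell in vehicle. In Rux 8 rose and 1 fell. In AG221 7 rose and 2 fell. Hspa5, which encodes BiP, was at 686 ± 48.8 CPM (SD, n = 3) in WT, 2960 ± 494 in vehicle, 2522 ± 194 in AG221, 2287 ± 191 in Rux and 800 ± 144 in combo. It was 2.11 ± 0.16 higher in vehicle than in WT on the log2 scale (adjusted p = 3.870e-06). From vehicle to combo it fell by 1.89 ± 0.15 (adjusted p = 2.503e-05), 1 of 5 genes of the list that fell there, where 4.21% of all tested genes did. Combo stood at 0.22 ± 0.15 from WT, adjusted p = 0.368.

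The relatives and partners of HSP70 held calls in both directions in AG221, where 22.2% of all tested genes rose and 28.5% fell. Of 6 tested genes of the HSP70 and HSP110 list, 4 fell and 1 rose against WT, with Hspa12b at -2.98 ± 0.52 (adjusted p = 0.000818), Hspa1l at -1.91 ± 0.61 (adjusted p = 0.0189) and Hspa13, which resides in the endoplasmic reticulum, higher at 1.19 ± 0.20. Of 8 exchange and partner factors 3 fell and 1 rose, and of 13 cytosolic J proteins 4 fell and 4 rose. Dnaja4 stood at -2.32 ± 0.43 and Dnajb4 at 0.58 ± 0.17. Both were also called against WT in vehicle (-1.73 ± 0.42 and 0.91 ± 0.17) and in Rux (-1.93 ± 0.42 and 0.68 ± 0.17). So was Hspa13, at 0.99 ± 0.20 in vehicle and 0.89 ± 0.20 in Rux. Bag4 was at 12.7, 30.4 and 12.5 CPM in AG221 A8, A9 and A10 against 44.6 to 46.8 in WT, the split seen for Dnajb1. Bag1 was at 162, 187 and 54.3 CPM in combo, 11.2 to 28.0 in vehicle and 34.4 to 75.6 in WT libraries. Combo stood 2.82 ± 0.51 above vehicle (adjusted p = 0.00415). Against WT, vehicle was lower (-1.40 ± 0.49, adjusted p = 0.0416) and combo was not called (1.42 ± 0.49, adjusted p = 0.101).

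The small heat shock protein genes named below, Hspb8, Hspb6 and Cryab, stood at no more than 14.6 CPM in any library. Of the 8 genes of this list 5 were tested. Against WT 1 was lower in vehicle, 1 higher and 1 lower in AG221 and 1 higher and 1 lower in Rux. Of all tested genes 17.9% were lower in vehicle. In AG221 22.2% were higher and 28.5% lower, and in Rux 16.1% and 16.2%. These counts of 1 in 5 are thus near the shares of all genes. Hspb8, a partner of Bag3, was at 3.12, 3.07 and 1.58 CPM in WT and at 0.043, 0 and 0.22 in AG221 libraries, with Hspb6 higher in Rux (0.76 ± 0.18, adjusted p = 0.0106). Cryab was called higher in AG221 than in WT (4.69 ± 1.80, adjusted p = 0.0432) on values of 14.6, 12.4 and 0.69 CPM, the last of which is near the highest WT value of 0.57 CPM.

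**Figure D5:**
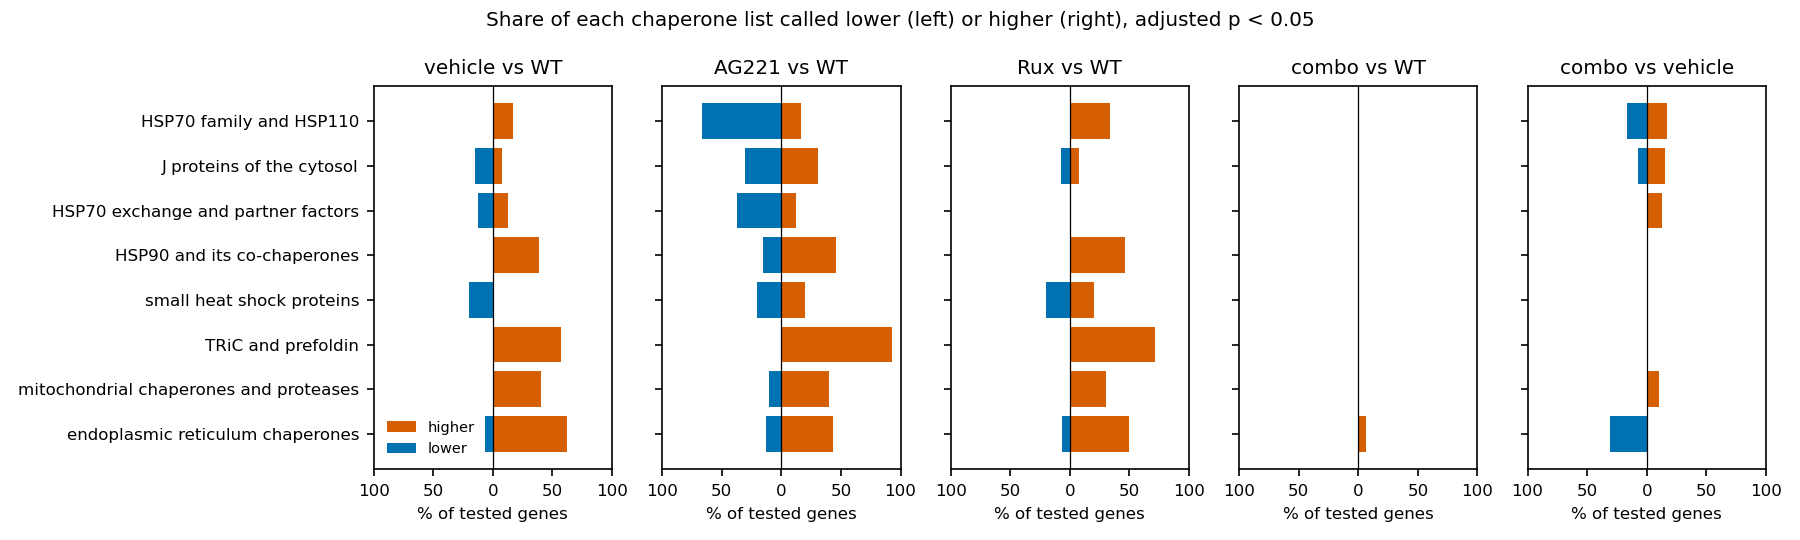
Share of the tested genes of 8 chaperone lists called lower (bars to the left) or higher (bars to the right) in 5 comparisons, in percent. TRiC and prefoldin reach their highest share in AG221 against WT, 13 of 14, and the combo panel against WT holds a single bar, 1 of 16 genes of the endoplasmic reticulum.

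The immediate early list had 18 of 24 genes higher in vehicle, 13 in AG221, 15 in Rux and 0 in combo against WT by edgeR. Of all tested genes 15.4%, 22.2%, 16.1% and 1.63% were higher in the same order. The 0 of 24 in combo is thus near the share of all genes. Atf3 rose from 0.33 ± 0.09 CPM (SD, n = 3) in WT to 50.9 ± 5.84 in vehicle and was at 0.33 ± 0.16 in combo libraries. Klf6 stood at 71.6 ± 5.96, 863 ± 164 and 68.8 ± 7.52 CPM and Ier3 at 44.7 ± 3.99, 281 ± 39.9 and 53.0 ± 7.74 CPM in the same groups. Their part in the chaperone levels was not tested.

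Outside the members and lists, the genes whose log2 CPM was most like the mean z score of the 9 tested members over 15 libraries were Ubqln4 (Pearson r = 0.93), Eloa (0.89), Gpd1l (0.88), Myo19 (0.87), Mybbp1a (0.87), Man1b1 (0.86), Nln (0.86) and Fasn (0.85). Within groups the values were 0.85, 0.81, 0.72, 0.73, 0.76, 0.73, 0.66 and 0.61, and by Spearman's rho 4 of the 8 stayed among the first 8. Ubqln4, a ubiquilin, was at 92.2 to 125 CPM in WT, 145 to 208 in vehicle, 126 to 160 in AG221, 160 to 171 in Rux and 96.0 to 119 in combo libraries. Among the members themselves, r with the mean z score ran from 0.08 for Bag3 to 0.67 for Hsph1, and within groups from -0.12 for Dnajb1 to 0.90 for Hsph1.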

How the data were processed

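RNA from sorted CD45.2+ LSK cells was amplified with the SMARTer kit and sequenced as paired-end 50 bp reads. The authors deposited raw read counts per Ensembl gene, made with STAR 2.5.1a on mm10 (GRCm38), and a DESeq2 1.6.3 normalized table that was not used here. The Ensembl release and strand setting are not given in the sources used here. Symbols, positions and lengths came from GENCODE M21, which matched 44585 of 45232 IDs.

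Groups followed the sample labels. Counts were filtered with filterByExpr, scaled by TMM and fitted with edgeR 4.0.16 (R 4.3.3), glmQLFit and glmQLFTest, with 1 term per group over all 15 libraries and no covariate. P-values are two-sided, and those given as adjusted were Benjamini-Hochberg adjusted over 17834 genes, with calls under 0.05. CPM are counts scaled to the TMM-adjusted library size, log2 CPM used a prior count of 2, and the error of a log2 fold change is its standard error. Counting intervals are exact Poisson intervals at 95% and cover counting error only, and the floor is 3 counts. The fit was tested on simulated counts.

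The members and lists were chosen with earlier results of these data known. All 10 members are described. Of each list at most 3 genes with the smallest adjusted p are named, Hsf1 in any case, with the 8 genes most like the mean z score. Alternatives were DESeq2 1.42.0, RLE and upper quartile scaling, other filters, only the groups compared, the HSP70 pair summed, each library left out, median transcript length, Spearman's rho and, chosen after seeing the data, GC content offsets. RefSeq windows were found for 8 members.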

Additional observations from a re-analysis of the deposited data

How the results depend on the processing

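The counts of members called depended on single libraries. Over the fits that each left out 1 library of the groups compared the count ran from 0 to 4 for vehicle against WT, 0 to 4 for Rux against WT, 6 to 9 for AG221 against WT, 0 to 2 for combo against WT, 0 to 6 for AG221 against vehicle, 1 to 3 for combo against vehicle, 2 to 6 for combo against AG221, 0 to 7 for AG221 against Rux and 0 to 6 for the interaction, and was 0 for Rux against vehicle and 1 for combo against Rux in every such fit. Leaving out a library of another group moved 3 of these counts further, to 5 for vehicle against WT, 4 for combo against vehicle and 2 for combo against Rux, all without AG221 A9, the last also without vehicle A3 or AG221 A10. No paired analysis was possible because the groups share no replicate number. DESeq2 called 4 in AG221 against vehicle, 2 in combo against Rux, 2 in AG221 against Rux and 1 in the interaction. Upper quartile scaling, which moved the median log2 fold change of all genes from 0.04 to -0.16 in combo against WT (102 higher and 539 lower in place of 291 and 288), called 1 in vehicle against WT, 2 in Rux against WT, 2 in AG221 against vehicle, 2 in combo against Rux and 4 in the interaction. Without a filter beyond 1 count 3 were called in AG221 against vehicle and 2 in combo against Rux. At least 10 counts in every library removed the HSP70 pair by construction and left 1 in vehicle against WT, 0 in combo against WT, 1 in combo against vehicle, 0 in combo against Rux and 1 in the interaction. With only the groups compared 2 were called in combo against Rux, with the pair summed 1 in combo against WT, and with GC content offsets 4 in vehicle against WT and 2 in combo against Rux. Signs were followed under every alternative for vehicle and combo against WT and for AG221, Rux and combo against vehicle, where those that turned belonged to differences that were not called. Without A9, Hspa1b in combo against AG221 turned from -0.46 to 0.92, neither called. Hspa1a in vehicle against WT stood at -0.056 under upper quartile scaling, -0.027 with only those groups and -1.07 with the pair summed, and at -0.73 to 0.35 over left-out libraries. Over left-out libraries, Rux against vehicle ran from -0.21 to 0.31 for Hsph1, -0.28 to 0.070 for Hsp90aa1, -0.23 to 0.31 for Hspd1, -0.14 to 0.32 for Hspe1 and -0.10 to 0.25 for Bag3, combo against vehicle from -0.41 to 0.015 for Hspe1 and -0.29 to 0.048 for Bag3, and combo against WT from -0.11 to 0.032 for Dnajb1 and -0.23 to 0.15 for Hsph1. Hsph1 in Rux against vehicle stood at 0.0098 with DESeq2, 0.011 with RLE, 0.022 with upper quartile scaling and 0.0044 with 10 counts in every library, and in combo against WT at 0.057 with GC offsets. Causes of these shifts were not tested.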
